A study of Columba livia with 18 samples.

Results

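The genes examined here are 10 genes of actin filament turnover: the actin depolymerising proteins CFL2 and DSTN, the slingshot phosphatases SSH1, SSH2 and SSH3, the kinase LIMK1, the monomer binding proteins TWF2 and PFN2, the capping protein subunit CAPZB, and WDR1. They were chosen by the symbol that the deposited annotation gives to each gene model, and each symbol matched 1 of the 20918 gene models of the rock pigeon Columba livia. The cuticulosome is an iron-rich sphere that lies in the cuticular plate, the actin meshwork beneath the hair bundle of avian hair cells. RNA was measured in 18 libraries from 9 pigeons aged 1 year, each of which gave a library of 30 pooled auditory hair cells that held cuticulosomes and another of 30 that held none. Cells came from the basilar papilla after removal of the lagena and were picked by hand under a light microscope, so that the groups rest on what was visible in the isolated cell, and all received the same brief trypsin digestion. The pigeons are numbered 433, 434 and 435, which were sequenced on flow cell 1, then 450, 451 and 458 on flow cell 2, and 513, 514 and 515 on flow cell 3.

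Actin filaments grow at their barbed end and lose subunits at the pointed end, and proteins of the ADF/cofilin family sever filaments and speed their disassembly. In mammals LIM kinases phosphorylate cofilin near its amino terminus and so inactivate it, and slingshot phosphatases remove this phosphate. WDR1 helps cofilin to take filaments apart, profilin returns subunits to growing ends, twinfilin binds monomers and barbed ends, and the capping protein, a heterodimer of an alpha and a beta subunit, closes the barbed end. In hair cells of mice and chickens actin makes up the stereocilia, whose cores are stable, and the cuticular plate into which they are rooted.

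The FPKM (fragments per kilobase of transcript, scaled to a fixed number of mapped reads) given by the authors were used as the level of each gene. Between 8855 and 16008 gene models were above 0 FPKM per library, with the highest number in the cuticulosome positive library of pigeon 435, and the cuticulosome positive library had more of them in 8 of 9 pigeons. Relative depth, recovered as a size factor, ranged from 0.388 in the cuticulosome positive library of pigeon 450 to 1.70 in the cuticulosome negative library of pigeon 451, and it was lower in the cuticulosome positive library in 7 of 9 pigeons. Except for SSH3, whose reads were inferred under an assumption given below, the read counts behind single FPKM values are unknown, so no counting error is given. Of 16 hair cell markers 12 matched, and their summed FPKM ranged from 4406 to 20427 in 17 libraries but was 1537 in the cuticulosome positive library of pigeon 435. The same library had the highest summed supporting cell markers (3345 FPKM, 13 of 16 symbols matched, against 247 to 1475 in the others) and glia and neuron markers (2098 FPKM), whereas the cuticulosome negative library of this pigeon had the highest red blood cell markers (37323 FPKM) and connective tissue markers (2007 FPKM). Results are therefore also given without pigeon 435 where they rest on it.

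DSTN, TWF2, CAPZB, WDR1 and PFN2 were found in every library of both kinds of hair cell, whereas the slingshot phosphatases and LIMK1 were close to 0 in most. DSTN (gene model CLIV_013140, scaffold 325) had the highest mean of the 10 genes at 430 ± 119 FPKM (SD, n = 18 libraries). It was followed by TWF2 (CLIV_006454, scaffold 335) at 354 ± 132 FPKM and CAPZB (CLIV_009553, scaffold 307) at 198 ± 53.4 FPKM. WDR1 (CLIV_002416, scaffold 38) reached 64.7 ± 28.9 FPKM and PFN2 (CLIV_016633, scaffold 484) 39.0 ± 24.8 FPKM. These 5 genes were above 0 in every library, as were 5173 of all gene models. CFL2 (CLIV_000646, scaffold 34) was lower at 8.82 ± 9.50 FPKM and was listed at 0 in 1 library.

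Of the remaining genes SSH2 (CLIV_002866, scaffold 94) had a mean of 1.64 ± 3.57 FPKM and SSH1 (CLIV_001774, scaffold 20) of 1.09 ± 1.81 FPKM. LIMK1 (CLIV_018527, scaffold 1020) had 0.287 ± 0.535 FPKM and SSH3 (CLIV_008072, scaffold 503) 0.0325 ± 0.0965 FPKM. Their means come from few libraries: SSH1 exceeded 1 FPKM in 6, SSH2 in 4, LIMK1 in 3 and SSH3 in none of the 18 libraries, and SSH1 was listed at 0 in 10, LIMK1 in 7, SSH2 in 5 and SSH3 in 16. In each pigeon the mean of both libraries was taken on the log2(FPKM + 1) scale, and the difference between neighbours in the order of levels was set beside its SD over the 9 pigeons. TWF2 stood apart from CAPZB, CAPZB from WDR1, PFN2 from CFL2 and CFL2 from SSH2 by more than this SD. DSTN and TWF2, WDR1 and PFN2, SSH2 and SSH1, SSH1 and LIMK1, and LIMK1 and SSH3 did not. Ranked by the median instead of the mean, TWF2 (403 FPKM) came before DSTN (391 FPKM).

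**Figure D1:**
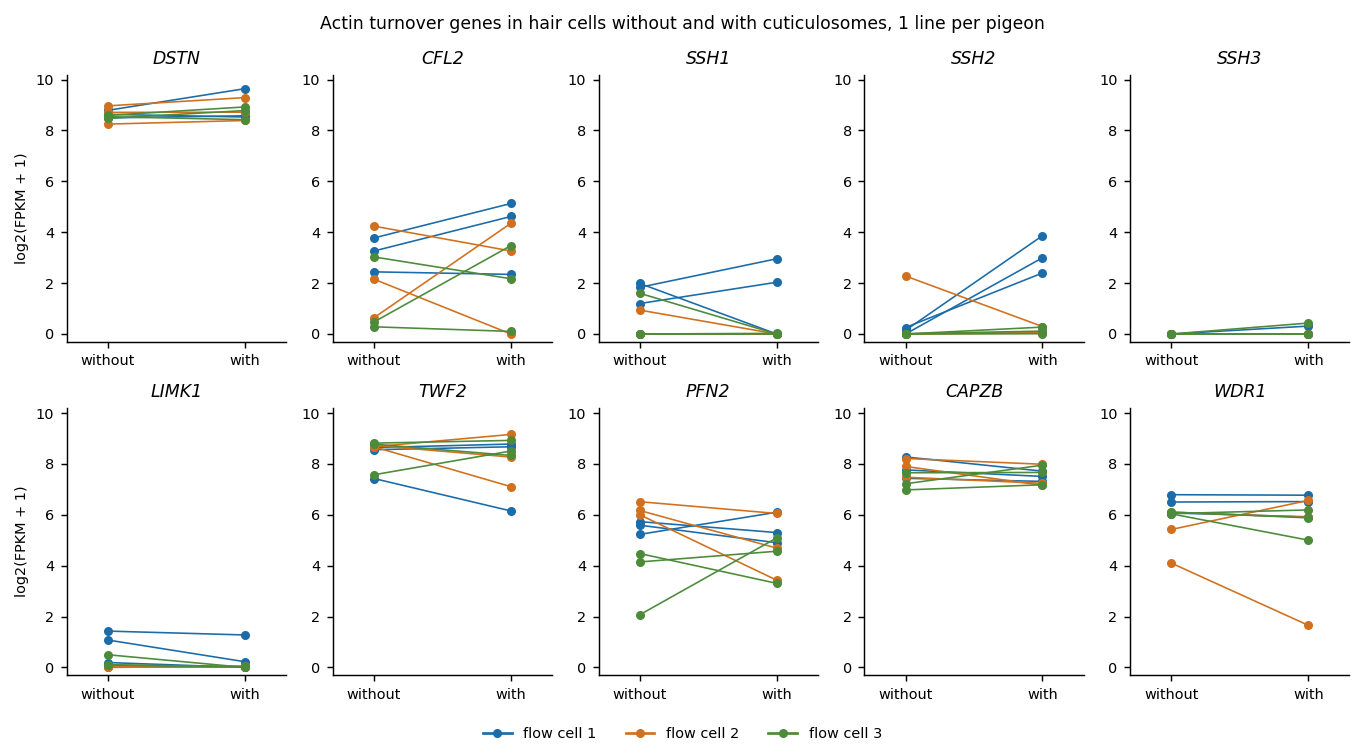
Level of each of the 10 genes, as log2(FPKM + 1), in the hair cells without and with cuticulosomes of each pigeon. A line joins the libraries of 1 pigeon and its colour gives the flow cell. DSTN, TWF2, CAPZB, WDR1 and PFN2 are above 0 in all 18 libraries, SSH1, SSH2, SSH3 and LIMK1 lie at or near 0 in most, and SSH2 reaches its highest values in the 3 cuticulosome positive libraries of flow cell 1.

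The deposited annotation assigns DSTN, CFL2 and TWF2 the actin depolymerising domain PF00241 of the Pfam database. SSH1 and SSH2 carry the dual specificity phosphatase domain PF00782 together with PF08766, whereas the SSH3 model carries PF00782 only. LIMK1 was annotated with the LIM domain PF00412, the PDZ domain PF00595 and the kinase domain PF07714. CAPZB was annotated with PF01115, the capping protein beta subunit family, WDR1 with the WD40 repeat PF00400 and PFN2 with the profilin family PF00235. The authors' mean count per library after division by size factors was 17389 for DSTN, 17121 for TWF2, 7813 for CAPZB, 4922 for WDR1, 713 for CFL2, 461 for PFN2, 206 for SSH2, 60.3 for SSH1 and 39.4 for LIMK1. PFN2 had 11.8 of these counts for each FPKM and LIMK1 138, the lowest and the highest ratio among the 10 genes, and PFN2 had fewer counts than CFL2 although its FPKM was higher. For SSH3 the authors' mean of 0.730 and the recovered size factors allowed 1 solution for its 2 libraries above 0, 8 reads in the cuticulosome positive library of pigeon 435 and 8 in that of pigeon 515, if none were counted in libraries listed at 0.

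Of DSTN and CFL2, the former was the more abundant in every library. DSTN encodes destrin, also called ADF, and CFL2 encodes cofilin-2, the form known from muscle in mammals. DSTN exceeded CFL2 in 18 of 18 libraries and made up 94.2% to 100% of the sum of both. By symbol the deposited annotation held no gene model of CFL1, nor of LIMK2 or PFN1. The levels of these related genes are therefore not known. In cuticulosome positive hair cells DSTN had a lowest value of 335 (pigeon 451), a median of 421 and a highest value of 799.57 FPKM (pigeon 435). In cuticulosome negative hair cells the lowest, median and highest values were 304, 386 and 500.2 FPKM. The groups overlapped, and the cuticulosome positive libraries of pigeons 435 and 450 were the only ones of the 18 above 500.2 FPKM. The fold of DSTN with over without cuticulosomes was 1.15 on the log2(FPKM + 1) scale, a log2 difference of 0.20 ± 0.15 (SE, n = 9 pigeons; 95% interval -0.11 to 0.51) that did not pass the test (limma, adjusted p = 0.902). It was higher in 7 of 9 pigeons (two-sided exact sign-flip test, p = 0.0586), and without pigeon 435 the difference was 0.12 (exact p = 0.117). Without pigeons 435 and 450, a choice made after the values were seen, it was 0.09 (exact sign-flip p = 0.234).

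CFL2 varied far more than DSTN. With cuticulosomes its lowest value was 0 (pigeon 451), its median 8.60 and its highest value 34.0 FPKM (pigeon 435), and without cuticulosomes these were 0.216 (pigeon 514), 4.44 and 17.9 FPKM (pigeon 450). The pigeons went in opposite directions. In pigeon 458 CFL2 was at 19.4 FPKM in the cuticulosome positive and 0.55 FPKM in the cuticulosome negative library, and in pigeon 451 at 0 and 3.45 FPKM. CFL2 was higher with cuticulosomes in 4 of 9 pigeons, with a log2 difference of 0.57 ± 0.63 (95% interval -0.76 to 1.90; limma, adjusted p = 0.908) and a median difference over pigeons of -0.10. The interval spans a fold of 0.591 to 3.74. Without pigeon 458 the difference was 0.18, and without pigeon 515 it was 0.27.

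SSH2 had its highest levels in cuticulosome positive hair cells of flow cell 1. It was above 0 in all 9 cuticulosome positive libraries and in 4 of 9 cuticulosome negative libraries, and the number of gene models above 0 was also higher with cuticulosomes in 8 of 9 pigeons, whose part in this was not tested. In flow cell 1 the cuticulosome positive libraries had 4.27, 6.98 and 13.6 FPKM (pigeons 433, 434 and 435) and the cuticulosome negative libraries of the same pigeons 0.19, 0 and 0.11 FPKM. The ranges of the 2 cell types, with 3 libraries each, did not overlap on this flow cell. How many of all gene models separated in this way was not counted, so the separation is given as a description only. In flow cells 2 and 3 all 6 cuticulosome positive libraries were between 0.0073 and 0.22 FPKM, and 5 of 6 cuticulosome negative libraries were at 0 or 0.01 FPKM, whereas the cuticulosome negative library of pigeon 458 had 3.85 FPKM. SSH2 was thus higher with cuticulosomes in 8 of 9 pigeons. In the 5 such pigeons outside flow cell 1, however, both values were below 1 FPKM. The study counts transcripts with a mean above 1 FPKM, which SSH2 reached over all libraries (1.64 FPKM).

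Over all pigeons the log2 difference of SSH2 was 0.82 ± 0.53 (95% interval -0.30 to 1.94; limma, adjusted p = 0.902; exact sign-flip p = 0.129). Without pigeon 435 its mean FPKM fell below the minimum of 1 and it left the fit, and the plain mean of the remaining differences was 0.46 (exact sign-flip p = 0.258). By flow cell the mean log2 difference was 2.95 in flow cell 1, -0.63 in flow cell 2 and 0.13 in flow cell 3. The test of this dependence on the flow cell gave an unadjusted p of 0.0052 (limma F test, adjusted p = 0.994), and SSH2 was the only 1 of the 8 members tested that was below 0.05, beside 4.55% of all gene models. Flow cell and pigeon cannot be told apart here, since each pigeon was sequenced on 1 flow cell. The study itself, which compared read counts with DESeq2 and the bird as a block, lists SSH2 as significantly higher with cuticulosomes.

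SSH1 was above 1 FPKM in 2 cuticulosome positive and 4 cuticulosome negative libraries. Its highest value was 6.76 FPKM in the cuticulosome positive library of pigeon 433, and it was listed at 0 in 6 of 9 cuticulosome positive and 4 of 9 cuticulosome negative libraries. Within pigeons it was higher with cuticulosomes in 3, lower in 3 and at 0 in both libraries of the others. The log2 difference was -0.28 ± 0.40 (95% interval -1.13 to 0.57; limma, adjusted p = 0.932). It was -0.07 without pigeon 434 and -0.12 without pigeon 513, and without pigeon 433 or 435 SSH1 fell below the minimum of the fit. In pigeon 434 SSH1 had 2.96 FPKM without and 0 with cuticulosomes while SSH2 had 0 without and 6.98 with, and in pigeons 433 and 435 both phosphatases were higher with cuticulosomes. SSH3 was listed at 0 in all 9 cuticulosome negative libraries and had 0.24 and 0.35 FPKM in the cuticulosome positive libraries of pigeons 435 and 515, so no fold is given.

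LIMK1, which counteracts the slingshot phosphatases, exceeded 1 FPKM in both libraries of pigeon 433 (1.42 with and 1.69 without cuticulosomes) and in the cuticulosome negative library of pigeon 435 (1.11 FPKM). It was lower with cuticulosomes in 6 pigeons, higher in 1 and at 0 in both libraries of the rest. The mean difference of log2(FPKM + 1) was -0.20 (exact sign-flip p = 0.0313, not adjusted over the 16 genes and 13 ratios so tested), and without pigeon 435 it was -0.12 (exact p = 0.0625). Relative depth was also lower with cuticulosomes in 7 of 9 pigeons, and its part in this difference was not tested. LIMK1 was below the minimum of the main fit, and in the fit of all 17832 gene models above 0 in any library its adjusted p was 0.803 (limma). In the same libraries the summed level of TESK1 and TESK2, which encode testis-specific kinases that also phosphorylate cofilin in mammals, had a mean of 34.1 FPKM and exceeded LIMK1 in 18 of 18 libraries. PDXP, which encodes another cofilin phosphatase, had a mean of 3.77 FPKM but was listed at 0 in 14 of 18 libraries.

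Of the monomer binding proteins, TWF2, twinfilin-2, had a lowest value of 70.1 (pigeon 435), a median of 363 and a highest value of 571 FPKM (pigeon 451) with cuticulosomes, and 171 (pigeon 435), 407 and 450.4 FPKM (pigeon 514) without them. Of the 18 libraries 14 were at 308 FPKM or more, and those below were the cuticulosome positive libraries of pigeons 435 and 450 and the cuticulosome negative libraries of pigeons 435 and 513. The log2 difference was -0.22 ± 0.23 (95% interval -0.71 to 0.28; limma, adjusted p = 0.907), with 5 of 9 pigeons higher with cuticulosomes. It was -0.09 without pigeon 435, -0.05 without pigeon 450, -0.36 without pigeon 513 and 0.13 without pigeons 435 and 450, a choice made after the values were seen. TWF2 exceeded TWF1, which encodes the related twinfilin-1 and had a mean of 33.7 FPKM, in 17 of 18 libraries, the exception being the cuticulosome positive library of pigeon 435.

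PFN2, profilin-2, ranged from 8.89 (pigeon 514) over a median of 28.9 to 67.6 FPKM (pigeon 434) with cuticulosomes and from 3.20 (pigeon 513) over 47.2 to 90.5 FPKM (pigeon 458) without them. Both groups covered most of the range of the other. It was lower with cuticulosomes in 6 of 9 pigeons, with a log2 difference of -0.28 ± 0.46 (95% interval -1.25 to 0.69; limma, adjusted p = 0.945). The difference moved with single pigeons. It was 0.0099 without pigeon 450 (9.79 FPKM with and 63.2 FPKM without) and -0.69 without pigeon 513 (33.1 FPKM with and 3.20 FPKM without), and its median over pigeons was -0.46. The mean level of PFN2 was 45.2 FPKM in flow cell 1, 54.1 FPKM in flow cell 2 and 17.6 FPKM in flow cell 3. A limma F test on the pigeon means, added after the values were seen, gave an unadjusted p of 0.0197 and an adjusted p of 0.504, and 8.74% of gene models had an unadjusted p under 0.05 in it. The lowest of the 18 values was in the cuticulosome negative library of pigeon 513, in which CALB1 was also listed at 0.

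CAPZB encodes the beta subunit of the capping protein and was, after DSTN, the steadiest of the 6 members with a mean above 5 FPKM (SD of log2(FPKM + 1) over 18 libraries 0.38 and 0.34). It had a lowest value of 142 (pigeon 451), a median of 181 and a highest value of 253 FPKM (pigeon 450) with cuticulosomes, and 125 (pigeon 513), 200.3 and 309 FPKM (pigeon 434) without. The log2 difference was -0.13 ± 0.19 (95% interval -0.53 to 0.26; limma, adjusted p = 0.930), and 6 of 9 pigeons were lower with cuticulosomes. With single pigeons left out it ranged from -0.24 (without pigeon 515) to -0.06 (without pigeon 451). The 6 lower pigeons were all the pigeons of flow cells 1 and 2, with mean log2 differences of -0.31 and -0.40, whereas the 3 pigeons of flow cell 3 were all higher by a mean of 0.31. The dependence on the flow cell did not pass the test (limma F test, unadjusted p = 0.258, adjusted p = 0.994). CAPZB exceeded the sum of CAPZA1 (69.9 FPKM) and CAPZA2 (53.0 FPKM), which encode the alpha subunits of the same heterodimer, in 17 of 18 libraries, with a mean of 1.61 times that sum. The ratio of CAPZB to the sum of the alpha subunits did not differ detectably between the cell types (log2 ratio difference -0.16, exact sign-flip p = 0.5).

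WDR1, also called AIP1, was lowest in both libraries of pigeon 450. Its lowest, median and highest values were 2.15 (pigeon 450), 59.6 and 108 FPKM (pigeon 433) with cuticulosomes and 16.1 (pigeon 450), 66.3 and 110 FPKM (pigeon 433) without. Pigeon 433 was highest in both groups. The log2 difference was -0.31 ± 0.32 (95% interval -0.98 to 0.37; limma, adjusted p = 0.903), and it was -0.04 without pigeon 450 and -0.49 without pigeon 451. DSTN exceeded WDR1 by 3.40 to 291 times, the highest ratio being that of the cuticulosome positive library of pigeon 450. This library also had the lowest relative depth of the 18.

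As a list, 8 of the 10 genes had a mean FPKM above 1 and entered the fit of 11393 gene models, and LIMK1 and SSH3 did not. At an adjusted p under 0.05, 0 of the 8 were higher and 0 lower with cuticulosomes by limma, where the background over all gene models was 0% in each direction and the smallest adjusted p of any gene model was 0.902. The study, with DESeq2 on read counts, reports significant genes in both directions, SSH2 among those higher. The fit of FPKM used here thus passed none of the study's significant genes. At an unadjusted p under 0.05 the count was also 0 of 8, beside 3.27% of all gene models higher and 2.01% lower. Of the 8 genes 3 had a log2 difference above 0, against 53.9% of all gene models, and their median was -0.18 beside 0.05 over all gene models. With the FPKM scaled by the upper quartile of each library, 682 gene models were higher and 108 lower at an unadjusted p under 0.05 in place of 372 and 229, and the median of all gene models moved to 0.19. DSTN then had a log2 difference of 0.39 and an unadjusted p of 0.0415 (limma, adjusted p = 0.732). This scaling raises libraries with a low upper quartile. The cuticulosome positive libraries of pigeons 435 and 450, highest in DSTN, had upper quartiles of 18.6 and 27.3 FPKM. The cuticulosome negative library of pigeon 435 had 26.2 FPKM, and the median over all libraries was 36.8 FPKM. In bulk samples such as these pools fewer cells of a type and less RNA per cell cannot be told apart.

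**Figure D2:**
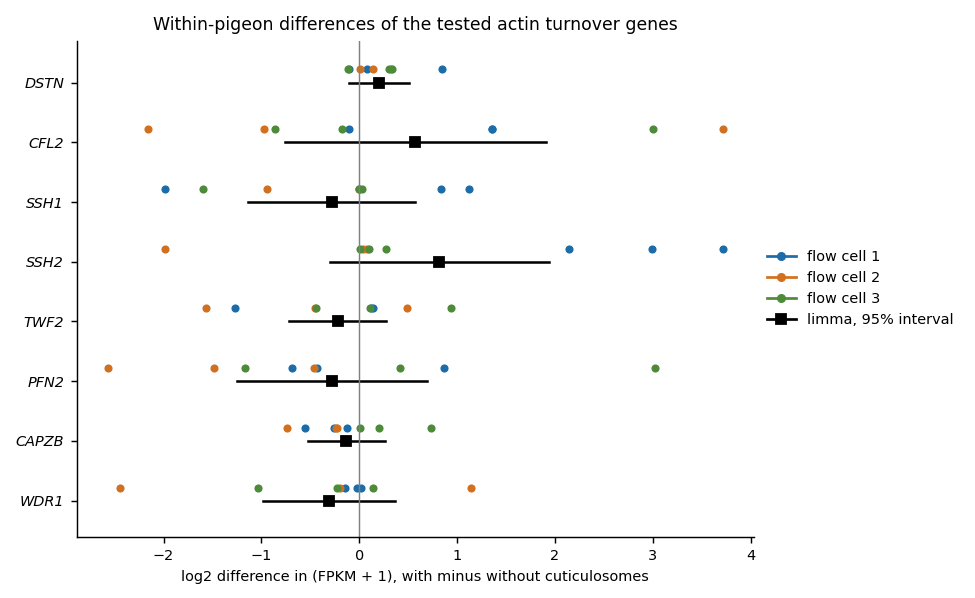
Difference of log2(FPKM + 1) between hair cells with and without cuticulosomes for the 8 genes that entered the fit. Each small point is 1 of the 9 pigeons, coloured by flow cell, and the square with its line is the limma estimate with its 95% interval. All 8 intervals include 0. DSTN has the narrowest interval (-0.11 to 0.51) and CFL2 the widest (-0.76 to 1.90), and the 3 highest points of SSH2 belong to flow cell 1.

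DSTN and TWF2, the most abundant members, varied in opposite directions between libraries. The Spearman correlation of their FPKM was -0.76 over the 18 libraries, which are 9 pairs from the same pigeons and share the denominator of the FPKM, and it was -0.72 without the cuticulosome positive library of pigeon 435. It is given as a description only. The ratio of DSTN to TWF2 had a median of 1.02 and lay between 0.587 and 1.37 in 14 libraries. In the other 4 libraries it was 11.4 (pigeon 435 with cuticulosomes), 4.57 (pigeon 450 with), 2.59 (pigeon 435 without) and 2.04 (pigeon 513 without). These 4 libraries had the lowest summed hair cell markers of all, from 1537 to 7387 FPKM against 10593 to 20427 FPKM in the other 14. CALB1, which encodes calbindin, dominates this sum and was listed at 0 in the cuticulosome negative library of pigeon 513, and without CALB1 that library ranked 12 of 18 from the top while the other 3 remained the lowest. Supporting cell markers, mainly others than SOX2 and GFAP, summed to 687 to 3345 FPKM in the 4 libraries and 247 to 1475 FPKM in the 14. The part of these markers in the ratio was not tested. Among the 14 libraries alone the correlation of DSTN with TWF2 was -0.66. With the summed hair cell markers it was -0.35 for DSTN and 0.12 for TWF2 in these 14 libraries, against -0.58 and 0.58 over all 18. Between the cell types the log2 ratio differed by 0.42 ± 0.99 (SD, n = 9 pigeons; exact sign-flip p = 0.293).

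**Figure D3:**
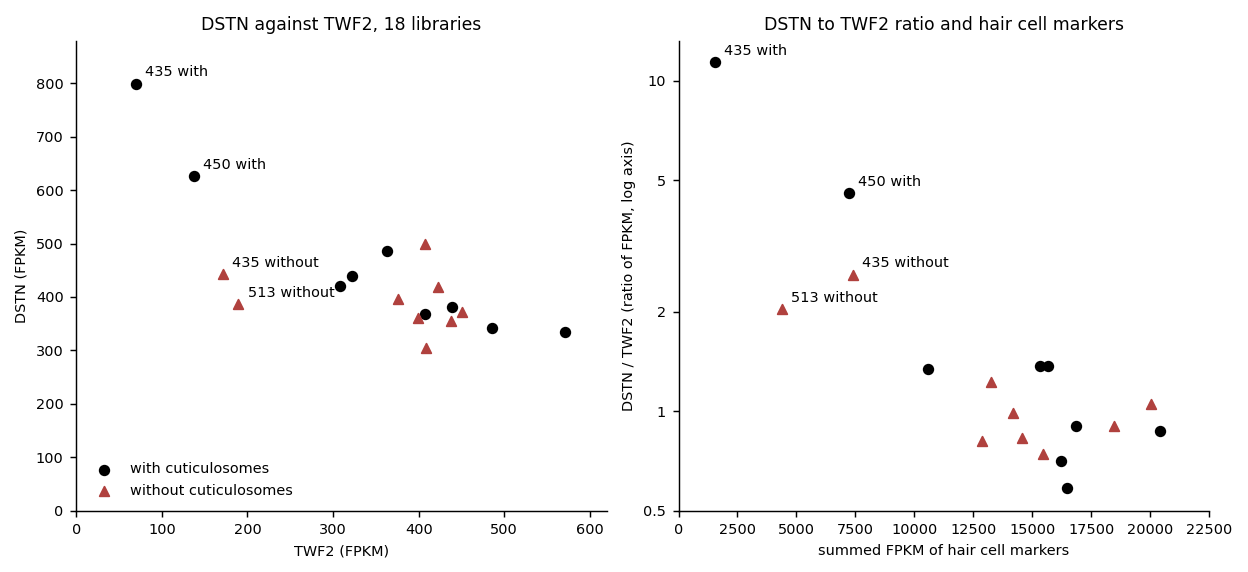
Left, DSTN against TWF2 in FPKM for the 18 libraries, with circles for hair cells with and triangles for hair cells without cuticulosomes. Right, the ratio of DSTN to TWF2 on a log axis against the summed FPKM of the hair cell markers. The 4 labelled libraries have ratios of 2.04 to 11.4 and the 4 lowest marker sums, and the other 14 have ratios of 0.587 to 1.37.

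By Spearman correlation of FPKM over the 18 libraries, the annotated gene models closest to DSTN were ICK (0.88) and SDHD (0.82). Those closest to TWF2 were TOMM34 (0.83), RFC4 (0.82) and FAM193B (0.81). The median correlation over all annotated gene models tested was 0.0093 with DSTN and -0.020 with TWF2. These are the highest among the annotated gene models that were tested, so they are a description.

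The wider machinery of actin turnover was described by a list of 95 symbols, of which 69 matched 83 gene models and 62 of these entered the fit. At an adjusted p under 0.05 none rose or fell (limma). At an unadjusted p under 0.05, 3 of 62 were higher and 0 lower with cuticulosomes, against 3.27% and 2.01% of all gene models, and 32 were above and 30 below 0 with a median of 0.02. Over all gene models 53.9% were above 0. All 4 gene models tested that the list groups under ADF/cofilin were above 0, with log2 differences from 0.02 (GMFB) to 0.90 (COTL1). That of CFL2 was -0.10 by the median over pigeons, and COTL1 had 20.5 ± 52.9 FPKM with a median of 6.39 FPKM. TWF2, annotated with the same domain as DSTN and CFL2, is counted among the monomer binding proteins and was at -0.22. Of the phosphatases 2 were above and 1 below 0, of the cofilin kinases and their upstream kinases 3 and 8, of the severing partners 4 and 3, and of the monomer binding proteins 3 and 3. Capping proteins had 8 above and 3 below 0, and nucleation and elongation factors 7 and 9. The 3 gene models of capping regulators tested were below 0, of which 2 are gene models of LRRC16A. None of these counts was tested. The most abundant kinase of the list was PAK3 at 119 ± 79.5 FPKM.

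The 3 gene models at an unadjusted p under 0.05 were none of the 10 members. They were picked by this limma p. Their sign-flip p-values come from the same differences and are not adjusted, so they are no separate support. DAAM1 (CLIV_008723), a formin that nucleates filaments, was at 6.17 ± 4.94 FPKM in cuticulosome positive and 1.34 ± 2.38 FPKM in cuticulosome negative hair cells (SD, n = 9 each). It was higher in 8 of 9 pigeons, with a log2 difference of 1.71 ± 0.54 (limma, unadjusted p = 0.0059, adjusted p = 0.902; exact sign-flip p = 0.0078), and its other gene model in the wider list had a log2 difference of 0.38. VIL1 (CLIV_018146), which encodes the capping and bundling protein villin, was at 29.9 ± 25.0 and 15.5 ± 22.7 FPKM. It was higher in 7 of 9 pigeons, with a log2 difference of 1.74 ± 0.57 (limma, unadjusted p = 0.0073, adjusted p = 0.902; exact sign-flip p = 0.0273). CAP2 (CLIV_010287), a cyclase-associated protein that works with cofilin, was at 40.5 ± 31.4 and 16.1 ± 12.1 FPKM. It was higher in 6 of 9 pigeons, with a log2 difference of 1.66 ± 0.64 (limma, unadjusted p = 0.0202, adjusted p = 0.902; exact sign-flip p = 0.082). In flow cell 1 its mean log2 difference was 0.30, with 1 of 3 pigeons higher. The difference of CAP2 was 1.27 without pigeon 513 and 1.23 without pigeon 515, whose cuticulosome negative libraries list it at 0. The other gene model of CAP2 in the wider list had a log2 difference of 0.61. In each of these genes the groups overlapped. Each of these symbols has more than 1 gene model in the table, between which reads of 1 gene may be divided.

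The most abundant gene models of the wider list besides DSTN and TWF2 were ACTB (CLIV_005381), which encodes beta-actin, ARPC2 (CLIV_003523), a subunit of the filament nucleating Arp2/3 complex, and TMSB4X (CLIV_019736), the monomer sequestering thymosin beta-4. ACTB was at 728 ± 790 FPKM in cuticulosome positive and 536 ± 465 FPKM in cuticulosome negative hair cells, with medians of 374 and 365 FPKM. Its highest values, 2561 and 1734.5 FPKM, were both from pigeon 435. ARPC2 was close to level between the cell types at 317 ± 84.3 and 311 ± 65.7 FPKM. TMSB4X had 307 ± 289 and 280.1 ± 415 FPKM, again with both highest values, 1023 and 1379 FPKM, from pigeon 435, and it exceeded PFN2 in 18 of 18 libraries. ACTB exceeded DSTN in 7 of 18 libraries. Gene models of other, closely similar actins carry other names in the table and are not in the list, and reads may be divided between them and ACTB.

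**Figure D4:**
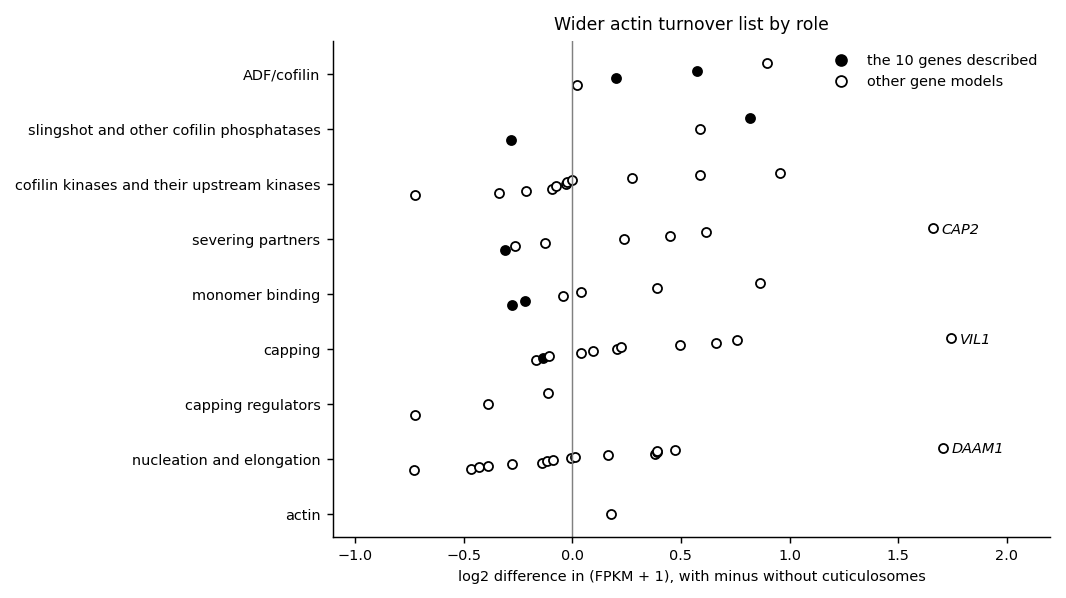
Log2 difference of (FPKM + 1) between hair cells with and without cuticulosomes for the 62 tested gene models of the wider actin turnover list, by role. Filled points are the genes described above, and the 3 gene models at an unadjusted p under 0.05 are named. DAAM1, VIL1 and CAP2 lie between 1.66 and 1.74, and all other gene models lie below 1.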

How the data were processed

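Full-length cDNA of the 18 pools was sequenced as 50-base single-end reads. The authors aligned them with TopHat 1.4.1 to a pigeon genome and its gene models (up to 6 mismatches, 1 hit per read), estimated FPKM with Cufflinks 1.3.0 including bias correction, counted reads with HTSeq 0.6.1p1 and compared the cell types with DESeq2 1.10.1 with the bird as a block. The deposited table holds FPKM per library and the authors' mean signal per gene model (counts divided by size factors). Its 5 columns of the authors' own comparison (log2 fold change, its error, statistic and p-values) were not used.

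FPKM were analysed as log2(FPKM + 1) with limma 3.58.1 in R 4.3.3 (variance trend, pigeon as a block) over 11393 gene models (mean FPKM above 1), with Benjamini-Hochberg adjustment over all of them. The step was also run on simulated data with normal noise. The real data hold many values listed at 0, so its power here is not known. Fold changes on this scale understate changes of low genes. Single genes were tested by a two-sided exact sign-flip test over the 512 sign patterns of the 9 within-pigeon differences (smallest possible p 0.0039). Libraries of 1 pigeon deviated together from the group means (median correlation 0.183, range 0.121 to 0.591, against -0.0646 for different pigeons), and they come from the same animal. Size factors were recovered from the authors' mean of gene models above 0 in 1 library only, 7 to 961 per library. Of these, 72.2% to 95.0% gave whole reads within 0.001 of a read. The cuticulosome positive library of pigeon 450 had 12 such gene models, of which 75% gave whole reads.

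Named are the 10 members, the gene models of the wider list with an unadjusted p under 0.05 or among the 5 highest means, and the 3 gene models most like DSTN and TWF2, of which 1 is not reported here. The members and lists were chosen with earlier results of these data known. No protein or genome sequence is shown. Other steps ran in Python 3.11.15 (pandas 2.3.3, numpy 2.4.6; figures, matplotlib 3.10.9). Alternatives were other pseudocounts, filters, scalings and variance models, no block, medians, summed gene models, and each pigeon or flow cell left out.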

Additional observations from a re-analysis of the deposited data

Results flagged for a closer look

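Of 32 groups of 9 libraries examined, 5 held a library far from the others. A rate of 1 in 20 groups by chance holds only for independent, normally distributed values. Here the same libraries recur in all groups of a cell type, and some groups are mostly at 0. The number expected by chance is therefore not known. SSH2 without cuticulosomes was highest in pigeon 458 at 3.85 FPKM, and LIMK1 with cuticulosomes was highest in pigeon 433 at 1.42 FPKM. WDR1 with cuticulosomes was lowest in pigeon 450 at 2.15 FPKM. Without cuticulosomes ACTB (1734.5 FPKM) and TMSB4X (1379 FPKM) were both highest in pigeon 435. In CAPZB every pigeon of flow cells 1 and 2 was lower with cuticulosomes (mean log2 differences -0.31 and -0.40) and every pigeon of flow cell 3 was higher (0.31), while the test of the dependence on the flow cell gave an adjusted p of 0.994 by limma. TMSB4X was lower in all pigeons of flow cell 1 (-0.50) and higher in all of flow cell 2 (1.07), with an unadjusted p of 0.0937 and an adjusted p of 0.994 in the same test. How many of all gene models had flow cells in opposite directions in this way was not counted.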

How the results depend on the processing

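Under every alternative 0 members and 0 gene models in all passed an adjusted p of 0.05 for the cell types by limma. Of 315 log2 differences of members and named gene models recomputed, 299 kept their sign (a value of 0 counted as kept) and 16 did not. These were CFL2 with the median over pigeons (-0.10); TWF2 with the median (0.11) and without pigeons 435 and 450 (0.13, chosen after seeing the data); CAPZB with upper quartile scaling (0.0548) and without flow cell 2 (0.0015); PFN2 without flow cell 2 (0.34), without pigeons 435 and 450 (0.0727) and with pigeons left out in turn (-0.69 to 0.0099); ACTB without flow cell 3 (-0.17); and ARPC2 without flow cell 1 (-0.0279), without pigeons 435 and 450 (-0.0739) and with pigeons left out in turn (-0.0367 to 0.0699). LIMK1, with a median of 0.031 FPKM over all libraries, moved to -0.75 with a pseudocount of 0.1. A smaller pseudocount shrinks differences between low values less. The cause of the changes of sign was not tested. Alternatives in which a gene did not enter the fit are not among the 315. SSH1 and SSH2 left the fit without flow cell 1, so whether SSH2 kept its sign there was not computed. Its mean log2 difference was -0.63 in flow cell 2 and 0.13 in flow cell 3. The count of members at an unadjusted p under 0.05 became 1 with upper quartile scaling (DSTN), 1 without flow cell 2 (SSH2) and 0 to 1 with pigeons left out in turn (SSH2 without pigeon 458, log2 difference 1.17). That of the wider list lower at an unadjusted p was 0 to 1 with pigeons left out in turn. By median FPKM DSTN ranked 2, TWF2 1, LIMK1 8, and SSH1 and SSH3 shared rank 9. Without the replicate block the member counts stayed at 0 and the wider list had 3 gene models higher and 0 lower, while gene models at an unadjusted p under 0.05 numbered 182 higher and 113 lower in place of 372 and 229. Except for SSH3, whose reads were inferred, the reads behind single values are unknown, and a listed 0 does not show absence.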
